A study of Homo sapiens with 5 samples.

Results

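Immune checkpoint ligands are proteins on the surface of a cell that hold back immune cells when they meet their receptors, and tumour cells often carry them. The 8 genes described here are CD274 (PD-L1), PDCD1LG2 (PD-L2), CD276 (B7-H3), VTCN1 (B7-H4), CD47, NECTIN2, PVR and LGALS9 (galectin-9). They were taken by symbol from the 36601 genes of the 80% sample, and all 8 were present. RNA and open chromatin (ATAC) were read from the same nuclei of 5 human lung adenocarcinoma cell lines, A549, HCC827, H838, H1975 and H2228. Each line had been grown alone in culture without drug or cytokine treatment named in the labels, and the dissociated cells had been frozen and mixed before nuclei were isolated and sorted. The droplets were split into a 20% and an 80% portion, with 1 RNA and 1 ATAC library each. There were therefore no replicates, no p-value is given, and all intervals are exact 95% intervals that cover counting error only. No immune cells were added, so the values describe the ligand side of tumour cells in isolation.

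As background, PD-L1 and PD-L2 bind PD-1 on T cells, and their genes lie next to each other on the short arm of chromosome 9. Interferon-gamma, released by activated T cells, is the best known inducer of CD274, acting through JAK kinases and IRF1. B7-H3 and B7-H4 belong to the same B7 family, and their receptors are less certain. CD47 binds SIRPA on macrophages and acts as a signal against being engulfed. NECTIN2 and PVR are adhesion molecules of the nectin family that bind the inhibitory receptor TIGIT and the activating receptor CD226. Galectin-9 is a sugar-binding protein that is known to bind TIM-3, the product of HAVCR2.

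The 80% sample held 6557 nuclei with 95455518 RNA UMIs (unique molecules), and the 20% sample held 1286 nuclei with 14346346 UMIs. Barcodes were called in both portions in 159 cases. Nuclei were grouped by RNA after the 8 genes and the related genes discussed below had been removed, which gave 5 clusters of 2484, 1459, 1450, 837 and 327 nuclei, numbered 0 to 4. Clusters built from the ATAC counts placed 98.2% of the nuclei in the same group. Clusters are given by number, since no cell line was assigned to any of them. Cluster 0 was led by MALAT1, and high in MEG3 and CDH11. Cluster 1 was led by ALDH1A1, cluster 2 by LDHB, cluster 3 by ACTB and cluster 4 by EGFR, at 7241 against 468 CPM in the next cluster. Doublet calls made up 0.552% of cluster 2 and 10.8% of cluster 3, with the others between. Levels are given as CPM, the UMIs of a gene on the counts-per-million scale of all UMIs of the cluster, and compare clusters within a gene, not genes with each other.

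The labelled epithelial origin was checked with markers. All 6 epithelial markers passed 200 UMIs, and their sum ran from 1671 CPM in cluster 2 to 10480 CPM in cluster 1. The sum was mostly keratin RNA, with KRT18 at 5833 and KRT8 at 2843 CPM in cluster 1. EPCAM and CDH1 gave another order. EPCAM stood at 111.7, 41.5, 23.4, 426.3 and 764.6 CPM in clusters 0 to 4, and CDH1 at 11.65, 46.1, 4.71, 120.5 and 200.4 CPM. The 5 lung lineage markers summed to 5.55 CPM in cluster 2 and 7.12 CPM in cluster 1, against 79.4 to 183.5 CPM in the other clusters, and the surfactant genes SFTPB and SFTPC had only 26 and 6 UMIs in all. Of 10 leukocyte markers, MS4A1 and NKG7 were at 0 UMIs in 6557 nuclei, which allows a share of nuclei of up to 0.0458%, and CD3E had 4 and PTPRC 34 UMIs. The leukocyte sum of 17.1 to 48.7 CPM came mostly from CD68 and CD14. The 5 fibroblast markers summed to 20.3 to 243.7 CPM, mostly COL1A1, and the 4 endothelial markers to 1.83 to 11.7 CPM.

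Of the 8 ligand genes, 7 had at least 200 UMIs in the 80% sample, and VTCN1 had 65. Only LGALS9 was at least 2-fold above the next cluster in its highest cluster, and 15.6% of the 14874 genes with at least 200 UMIs passed the same mark. CD274, PDCD1LG2, CD47 and LGALS9 differed at least 4-fold between the highest and the lowest cluster, which is 4 of 7, against 31.1% of all genes. The first share is close to that of all genes. CD274, PDCD1LG2 and CD47 were all higher in clusters 0, 3 and 4 than in clusters 1 and 2, a pattern noticed in the values and held by 16.8% of genes. NECTIN2 was instead lowest in clusters 3 and 4, and PVR and CD276 varied less than 3-fold. Of the 7 genes, 3 were highest in cluster 0 (PDCD1LG2, NECTIN2 and LGALS9), 3 in cluster 3 (CD274, CD276 and PVR) and 1 in cluster 4 (CD47), against 22.3%, 18.2% and 15.0% of all genes.

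**Figure D1:**
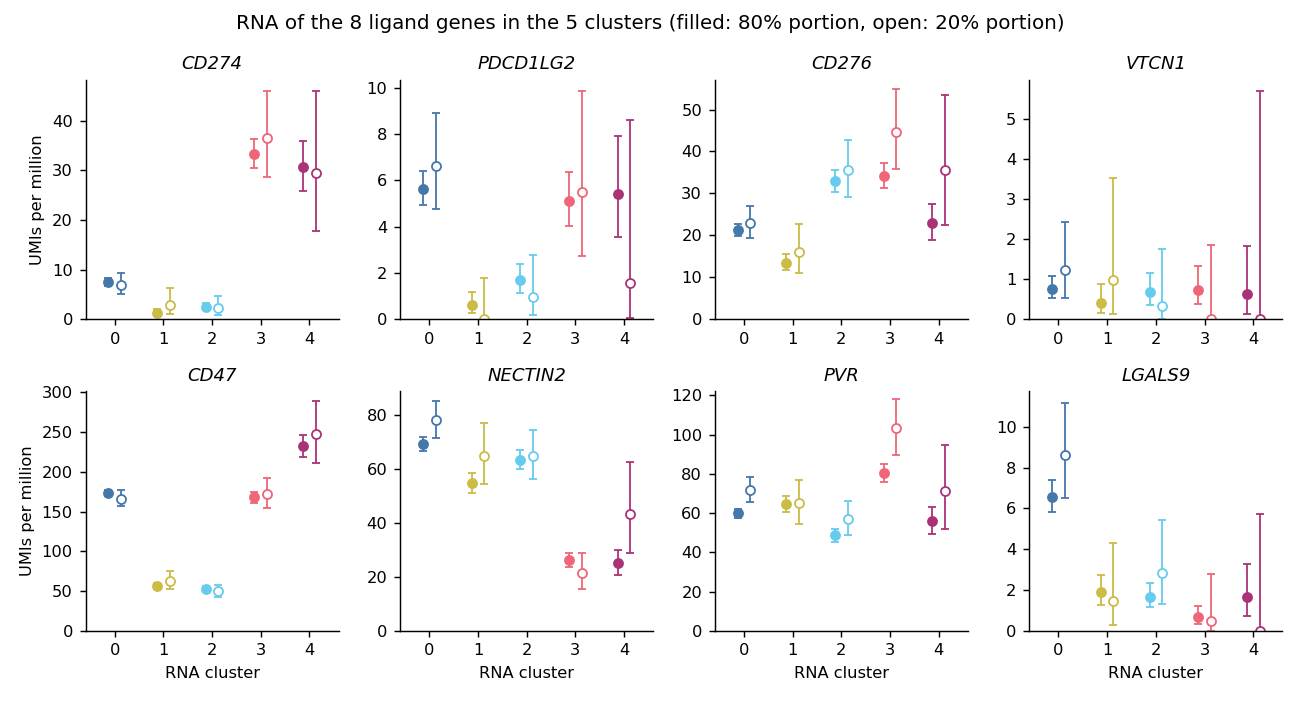
RNA level of each ligand gene (vertical axis, CPM) in RNA clusters 0 to 4 (horizontal axis), with exact 95% Poisson intervals. Filled points are the 80% sample and open points the 20% sample. In the 80% sample CD274 stands at 33.3 and 30.6 in clusters 3 and 4 and at or below 7.50 elsewhere, whereas PVR stays between 48.6 and 80.3. In the 20% sample PVR reaches 103.3 (89.65 to 118.4) in cluster 3.

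CD274 encodes PD-L1, the main ligand of PD-1. Its level was 7.50 CPM (6.69 to 8.37) in cluster 0, 1.29 (0.776 to 2.01) in cluster 1, 2.51 (1.85 to 3.33) in cluster 2, 33.3 (30.5 to 36.4) in cluster 3 and 30.6 (25.8 to 36.0) in cluster 4. Clusters 3 and 4 did not differ beyond counting error, with a ratio of 1.09 (0.905 to 1.32). Cluster 4 was 4.08-fold above cluster 0 (3.33 to 4.98), and cluster 3 was 25.9-fold above cluster 1 (16.4 to 43.3). In the 20% sample the levels were 6.92, 2.93, 2.22, 36.6 and 29.4 CPM in clusters 0 to 4, so the same clusters were high. Without doublet calls the levels of clusters 3 and 4 were 35.1 and 32.5 CPM.

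After each nucleus was thinned to 5000 UMIs, a CD274 UMI was found in 12.95% of nuclei of cluster 3 (10.8 to 15.4) and in 11.6% of cluster 4 (8.33 to 15.7). The same share was 3.27% in cluster 0 (2.60 to 4.05), 1.68% in cluster 2 (1.08 to 2.48) and 0.491% in cluster 1 (0.198 to 1.01). Thinning left out 38, 33, 18, 3 and 9 nuclei of clusters 0 to 4. Unthinned, the shares were 9.58%, 1.23%, 3.31%, 34.5% and 26.0%, at median depths of 15403, 9140, 12672, 15887 and 11985 UMIs. No cell type that should lack CD274 was in the mixture, so a part of the low shares that free RNA could give was not measured.

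The CD274 promoter and 2 peaks near it are printed because RNA and open chromatin could be compared there across clusters. The promoter comes from RefSeq (GRCh38.p14, chr9:5450292-5450502, + strand), cut before the first annotated transcribed base. The peak centres come from hg38 (+ strand). The peak at -3754 bp from the start lies between genes (chr9:5446302-5447196, centre chr9:5446599-5446898). The peak 4905 bp after the start lies in a CD274 intron (chr9:5454958-5455859, centre chr9:5455259-5455558). Capitals mark letters that match a motif searched on both strands. GAS was read as TTCNNNGAA and AP-1 as TGANTCA. The GC box was GGGCGG, and the HRE core was ACGTG. The CCAAT box and the TATA box (TATAAA) were read by their letters. The ISRE core is GAAA and again GAAA with 2 free bases between, and NF-kB is GGG and then CC with 5 free bases between.
CD274 promoter: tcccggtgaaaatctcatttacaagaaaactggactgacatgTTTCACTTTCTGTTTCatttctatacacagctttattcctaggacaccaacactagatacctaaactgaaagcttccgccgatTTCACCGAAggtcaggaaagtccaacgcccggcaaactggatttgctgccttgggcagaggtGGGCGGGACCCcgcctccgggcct
CD274 upstream peak: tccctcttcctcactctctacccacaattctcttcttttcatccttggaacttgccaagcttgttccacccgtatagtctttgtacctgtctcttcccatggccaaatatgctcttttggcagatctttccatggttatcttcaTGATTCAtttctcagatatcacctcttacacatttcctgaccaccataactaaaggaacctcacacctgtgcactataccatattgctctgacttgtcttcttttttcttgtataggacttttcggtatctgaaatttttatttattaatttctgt
CD274 intron peak: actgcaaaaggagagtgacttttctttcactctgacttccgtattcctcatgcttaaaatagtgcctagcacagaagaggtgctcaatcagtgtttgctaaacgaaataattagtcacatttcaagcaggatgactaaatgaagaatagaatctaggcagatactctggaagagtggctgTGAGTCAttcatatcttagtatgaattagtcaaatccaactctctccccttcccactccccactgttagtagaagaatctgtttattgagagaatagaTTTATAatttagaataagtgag

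In the CD274 promoter, 2 ISRE core matches overlapped in the first run of capitals, and the second run was a GAS match. The third run held the GC box overlapped by 2 NF-kB matches. GAS and ISRE are known as elements of interferon-responsive promoters. Among the 250 bases before the start of 35116 promoters, 6.57% held a GAS match and 3.02% an ISRE core match, while 54.4% held an NF-kB match and 42.6% a GC box. A promoter was found for 7 of the 8 ligand genes, all but PDCD1LG2, and CD274 was the only one of the 7 with a GAS or an ISRE core match. Both peak centres held AP-1 letters, in capitals, as did 33.8% of all 158280 peak centres, and the intronic peak also held TATAAA on the other strand. Matches are descriptions of letters, and binding was not measured.

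The CD274 start was open in every cluster and did not follow the RNA of cluster 3. Its peak had an ATAC level of 14.6, 14.8, 11.8, 15.3 and 29.8 CPM in clusters 0 to 4, and 8.21%, 5.69%, 3.72%, 9.32% and 16.5% of nuclei had a count there. The start was thus as open in cluster 1, which had the lowest CD274 RNA, as in cluster 3, which had the highest. Cluster 4 was 1.94-fold above the next cluster, and 2.13-fold without doublet calls and 2.79-fold in the 20% sample. None of the 8 genes reached 2-fold at its start in the 80% sample, against 8.32% of 19453 genes with at least 200 ATAC counts within 1000 bp of the start. For a gene with several annotated starts, the window ran from 1000 bp before the first to 1000 bp after the last. Median ATAC counts per nucleus were 11498.5, 7343, 6516, 10493 and 10036 in clusters 0 to 4, and these move with the shares of nuclei but not with the ATAC CPM, which is the same scale over all ATAC counts of a cluster.

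**Figure D2:**
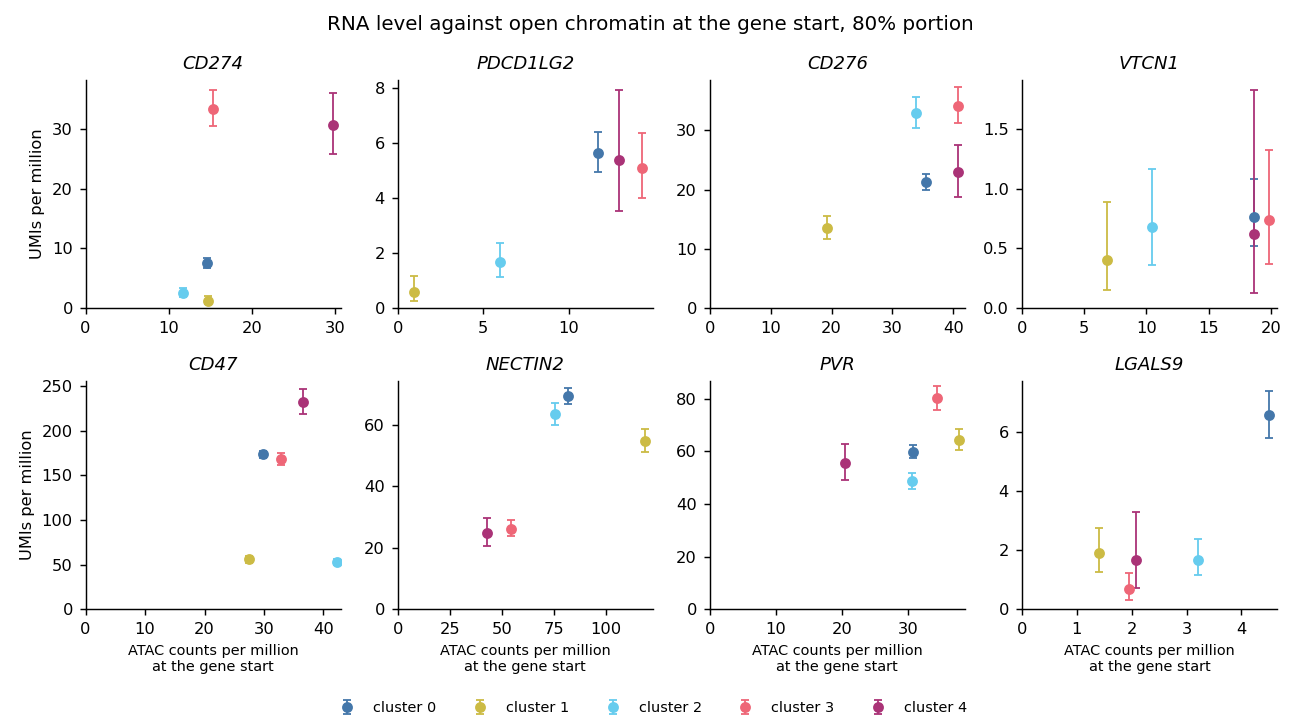
RNA level (vertical axis, CPM, with exact 95% Poisson intervals) against ATAC CPM in peaks within 1000 bp of the gene start (horizontal axis) for each gene in the 80% sample, 1 point per cluster. Where a gene has several starts, the peaks are those along the stretch from the first to the last. CD274 RNA runs from 1.29 in cluster 1 to 33.3 in cluster 3 while the start is at 14.8 and 15.3, and PDCD1LG2 is low in both readings in clusters 1 and 2.

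Away from the start, open chromatin near CD274 separated the clusters more clearly. The peak at -3754 bp had 2.54, 0.884, 0.854, 10.2 and 20.7 ATAC CPM in clusters 0 to 4. A count was found in 5.73% of nuclei of cluster 3 (4.26 to 7.53) and 11.3% of cluster 4 (8.09 to 15.3), but in 0.343% of cluster 1 (0.111 to 0.798) and 0.276% of cluster 2 (0.0752 to 0.705). The clusters with the most CD274 RNA were therefore the most open there, and their intervals did not overlap those of the other clusters. The intronic peak at +4905 bp had 6.45, 0.442, 0.854, 6.06 and 12.96 ATAC CPM, so cluster 0 was as open as cluster 3. The peak at -3754 bp had 3.03, 0.937, 0, 4.74 and 12.8 ATAC CPM in the 20% sample, which rests on 19, 2, 0, 8 and 9 counts.

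Of 11 peaks with at least 100 counts assigned to CD274, within 50000 bp of its gene body or start, 7 were higher in each of clusters 0, 3 and 4 than in clusters 1 and 2. For all 100354 such peaks the share with this pattern was 20.9%. At PDCD1LG2 it held for 4 of 7 peaks, 3 of which are shared with CD274. A pair of those peaks lies between the starts of the genes, in introns of the long non-coding gene ENSG00000286162, at 43662 and 50474 bp from the CD274 start. The second (chr9:5500518-5501436) had 8.68, 0.354, 0.107, 9.57 and 9.07 ATAC CPM, with counts in only 2 of 1459 nuclei of cluster 1 and 1 of 1450 of cluster 2. At CD274, 2 of 11 peaks were at least 2-fold above the next cluster, against 22.4% of all such peaks, and 6 of 11 were highest in cluster 4, against 16.7%.

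**Figure D3:**
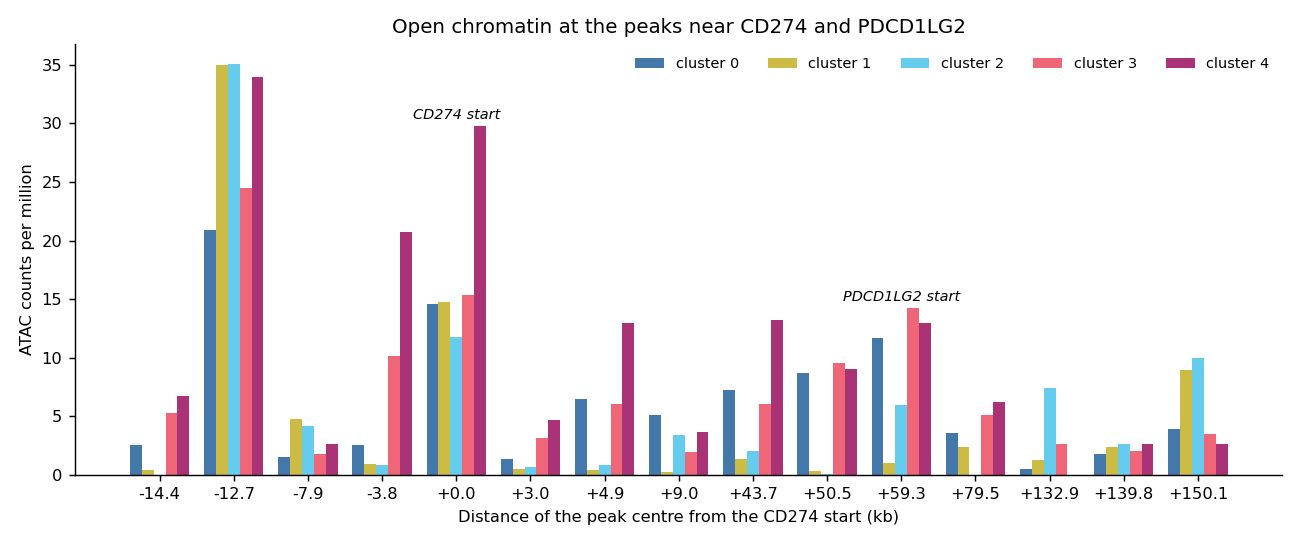
ATAC CPM (vertical axis) in the 5 clusters of the 80% sample at the peaks with at least 100 counts near CD274 and PDCD1LG2, placed by the distance of the peak centre from the CD274 start in kb (horizontal axis, not to scale). The CD274 start is open in all clusters, whereas the peak at -3754 bp is at 10.2 and 20.7 in clusters 3 and 4 and at or below 2.54 in the rest.

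The wider neighbourhood on chromosome 9 was measured to see the level around the genes. Over 346 peaks within 5000000 bp of CD274, leaving out the nearest 100000 bp, the share of ATAC counts relative to the other clusters was -0.59, 0.44, 0.01, -0.45 and 0.41 on the log2 scale in clusters 0 to 4. RNA of 28 genes there had medians of -0.77, 0.39, -0.05, -0.70 and 0.30. Cluster 3 was therefore low across the region and high in CD274, and cluster 1 was high across the region and lowest in CD274. Only cluster 4 was high in both. Of 11 fixed neighbours of CD274, 7 were highest in cluster 1 and 4 in cluster 4, against 19.0% and 15.0% of all genes, and only GLDC differed over 4-fold between clusters, against 31.1%. JAK2, a kinase of interferon signalling in this region, varied from 17.9 to 28.1 CPM.

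PDCD1LG2 encodes PD-L2, the other ligand of PD-1, and was sparse, with 379 UMIs. Its level was 5.64 CPM (4.94 to 6.40) in cluster 0, 0.610 (0.279 to 1.16) in cluster 1, 1.68 (1.15 to 2.37) in cluster 2, 5.10 (4.02 to 6.38) in cluster 3 and 5.41 (3.53 to 7.93) in cluster 4. Clusters 0, 3 and 4 did not differ beyond counting error, and cluster 3 was 3.04-fold above cluster 2 (1.99 to 4.75). PDCD1LG2 thus shared its low clusters with CD274, but cluster 0, although well below clusters 3 and 4 in CD274, had as much PDCD1LG2 as they did. In the 20% sample cluster 1 had 0 UMIs, which allows up to 1.47 CPM, and cluster 4 had 1 UMI. The nearest peak, centred at -749 bp from the start, had 11.7, 0.973, 5.98, 14.3 and 12.96 ATAC CPM. It ranged 14.7-fold and was the only ligand start past 4-fold, against 22.1% of all gene starts. Both readings of PDCD1LG2 were lowest in cluster 1. The overlapping gene ENSG00000286162 (AL162253.2) had 953 UMIs, and reads shared between the genes could not be separated here.

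CD47 was high in clusters 0, 3 and 4 as well. Its level was 173.7 CPM (169.8 to 177.8), 55.9 (52.2 to 59.9), 52.7 (49.5 to 56.1), 167.9 (161.4 to 174.6) and 232.4 (219.0 to 246.4) in clusters 0 to 4. Cluster 4 was 1.34-fold above cluster 0 (1.26 to 1.43), clusters 0 and 3 did not differ beyond counting error, and cluster 3 was 3.002-fold above cluster 1 (2.77 to 3.25). The 20% sample gave 166.3, 63.0, 49.8, 172.5 and 247.5 CPM, with clusters 0, 3 and 4 again above clusters 1 and 2. After thinning, 66.7% of nuclei of cluster 4 had a CD47 UMI, against 22.1% of cluster 2.

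The CD47 start did not show this split in ATAC CPM, with 29.8, 27.4, 42.2, 32.9 and 36.6 in clusters 0 to 4. Cluster 2, with the least CD47 RNA, was highest by this value, 1.15-fold above cluster 4. The order changed in the 20% sample, where cluster 4, with the most CD47 RNA, had 71.0 ATAC CPM and cluster 2 had 43.8. The shares of nuclei with a count in the larger sample were 16.6%, 10.7%, 13.2%, 19.2% and 20.8%. Those shares were higher in clusters 0, 3 and 4, but they also move with ATAC depth. Of 8 peaks near CD47, 6 were higher in each of clusters 0, 3 and 4 than in clusters 1 and 2, against 20.9% of all peaks with at least 100 counts. The same held for 2 of 14 peaks at CD276, 4 of 14 at VTCN1, 1 of 20 at NECTIN2, 1 of 22 at PVR and 0 of 8 at LGALS9. The peak 92236 bp downstream of the start, between genes (chr3:107999096-108000157), had 15.0, 1.24, 4.59, 22.8 and 17.4 ATAC CPM. Counts were found in 13.3% of nuclei of cluster 3 (11.04 to 15.75) and 0.480% of cluster 1 (0.193 to 0.986). Its values in the 20% sample were 14.2, 1.88, 1.46, 28.4 and 18.5 ATAC CPM, again low in clusters 1 and 2. A peak on the other side of the gene, at -39391 bp from the start in an intron of LINC01215 and picked after its values were seen, had 13.7, 1.503, 6.73, 11.9 and 10.4. The neighbourhood of CD47 stayed between -0.26 and 0.27 on the log2 ATAC scale. The centre of the 92236 bp peak (hg38, chr3:107999477-107999776, + strand) is printed as the one of 3 named CD47 peaks with the most counts, with its CCAAT match, on the other strand, in capitals. CCAAT letters were present in 32.8% of peak centres.
CD47 distal peak: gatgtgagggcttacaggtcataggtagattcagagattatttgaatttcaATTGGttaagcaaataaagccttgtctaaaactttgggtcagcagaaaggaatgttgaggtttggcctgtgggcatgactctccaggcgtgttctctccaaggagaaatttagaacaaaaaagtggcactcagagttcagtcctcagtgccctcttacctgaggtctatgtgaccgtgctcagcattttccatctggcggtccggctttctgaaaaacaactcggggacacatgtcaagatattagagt

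CD276 encodes B7-H3, which is common on solid tumours. Its level was 21.3 CPM (19.9 to 22.7), 13.5 (11.7 to 15.5), 32.9 (30.4 to 35.6), 34.1 (31.2 to 37.2) and 22.9 (18.8 to 27.6) in clusters 0 to 4. Clusters 2 and 3 did not differ beyond counting error, nor did clusters 0 and 4, and the whole range was 2.53-fold (2.14 to 2.995). CD276 therefore stayed up in cluster 2, where CD274 and CD47 were low. Its ATAC level was summed over the 7 peaks within 1000 bp of the stretch from its first to its last annotated start. The sum was 35.4, 19.2, 33.9, 40.8 and 40.7 CPM, lowest in cluster 1 like the RNA. The peak at 267 bp from the start alone had 11.6, 11.4, 17.7, 14.65 and 13.2 CPM, with clusters 0 and 1 alike.

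VTCN1, which encodes B7-H4, was close to absent. It had 32, 6, 13, 11 and 3 UMIs in clusters 0 to 4, or 0.764, 0.407, 0.681, 0.738 and 0.624 CPM, and the highest and the lowest did not differ beyond counting error. The 20% sample had 11 UMIs in all. The 3 peaks within 1000 bp of the stretch from its first to its last start nevertheless had counts. They summed to 18.6, 6.81, 10.5, 19.8 and 18.7 ATAC CPM. The peak at -25 bp from the start alone had 9.47, 5.75, 2.99, 3.91 and 12.2. The neighbourhood on chromosome 1 was 1.38 higher in cluster 2 on the log2 ATAC scale, and 8 of 14 nearby peaks were highest there, against 21.3% of all peaks with at least 100 counts, yet VTCN1 RNA was no higher. Whether these UMIs come from the nuclei or from free RNA was not tested.

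NECTIN2 and PVR lie near each other on chromosome 19 and share receptors, but their patterns differed. NECTIN2 stood at 69.3 CPM (66.8 to 71.9), 54.8 (51.1 to 58.7), 63.4 (59.9 to 67.1), 26.2 (23.7 to 29.0) and 24.97 (20.7 to 29.9) in clusters 0 to 4. Clusters 3 and 4 did not differ beyond counting error, and cluster 1 was 2.09-fold above cluster 3 (1.85 to 2.36). The clusters with the most CD274 RNA thus had the least NECTIN2. NECTIN2 in the 20% sample was 78.3, 64.9, 65.0, 21.6 and 43.3 CPM, and cluster 4 was then above cluster 3, with 28 UMIs. Its start peak had 81.9, 118.7, 75.5, 54.2 and 42.8 ATAC CPM, lowest in the same clusters. The neighbourhood, over 1355 peaks, was -0.25, 0.90, 0.33, -0.73 and -0.65 on the log2 ATAC scale, so it moved with NECTIN2 in clusters 3 and 4, and its part in the result was not tested. An intronic NECTIN2 peak 22630 bp after the start (chr19:44868352-44869259) had 24.9 ATAC CPM in cluster 0 and at most 4.27 elsewhere, a 5.84-fold gap. The 20% sample gave 29.99 and at most 2.96 there.

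PVR varied least of the ligands with at least 200 UMIs. Its level was 59.9 CPM (57.6 to 62.3), 64.4 (60.4 to 68.6), 48.6 (45.5 to 51.8), 80.3 (75.8 to 84.9) and 55.8 (49.3 to 62.9) in clusters 0 to 4, a range of 1.65-fold (1.52 to 1.80). Cluster 3 was 1.25-fold above cluster 1 (1.14 to 1.36), and the later neighbours in the order did not differ beyond counting error. PVR was therefore highest in a cluster where NECTIN2 was low and where the neighbourhood, shared with NECTIN2, was at -0.75 on the log2 ATAC scale. Its start had 30.7, 37.8, 30.6, 34.4 and 20.5 ATAC CPM. A peak 51166 bp after the start, in an intron of CEACAM16-AS1, had 41.8 ATAC CPM in cluster 1 and at most 1.99 elsewhere, while PVR RNA in cluster 1 was not raised to match.

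LGALS9, the galectin gene, was the only ligand called 2-fold above the next cluster in RNA. Its level was 6.57 CPM (5.81 to 7.39) in cluster 0, 1.90 (1.26 to 2.74) in cluster 1, 1.68 (1.15 to 2.37) in cluster 2, 0.671 (0.322 to 1.23) in cluster 3 and 1.66 (0.719 to 3.28) in cluster 4. Cluster 0 was 3.46-fold above cluster 1 (2.34 to 5.30) and 9.79-fold above cluster 3 (5.25 to 20.7). Of 69 UMIs in the 20% sample, 56 were in cluster 0. The start was also most open in cluster 0, at 4.49 ATAC CPM against 1.42 to 3.20, from 205 counts in all. In the 20% sample cluster 0 hardly led, at 6.06 ATAC CPM against 5.68 in cluster 4 and 5.35 in cluster 2. Near-identical copies, LGALS9B and LGALS9C, had 5 UMIs each, and reads that fit several copies may have been lost from all of them, so the level of LGALS9 is uncertain.

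Sub-clusters at a finer resolution showed how uniform the ligands were within a cluster. Of 20 sub-clusters, 16 held at least 1% of nuclei. CD274 ran from 0.712 to 1.77 CPM in the 3 of cluster 1 and from 2.27 to 2.998 in the 2 of cluster 2, within overlapping intervals. In cluster 0, with 8 sub-clusters, it ran from 2.01 CPM (0.548 to 5.15) in sub-cluster 15, of which 82.1% were doublet calls, to 13.6 CPM (11.4 to 16.2) in sub-cluster 5. The 8 leading genes of sub-cluster 5 were NEIL3, MIR924HG, CLSPN, DIAPH3, POLQ, FBXO5, FAM111B and TYMS, several of which act in DNA repair and replication. Sub-cluster 11, whose leading genes also include replication genes such as POLA1 and DTL, had 5.94 CPM of CD274 (3.63 to 9.18). Sub-cluster 5 was picked as the highest in CD274 after the values were seen, so a high CD274 ratio follows from that choice. Against sub-cluster 2, the largest of cluster 0, sub-cluster 5 had 3.78-fold more CD274 (2.54 to 5.80), 2.57-fold more PDCD1LG2 (1.65 to 4.11) and 1.33-fold more CD47 (1.24 to 1.43), but 0.743 times the NECTIN2 (0.660 to 0.838). Its median depth was 18209 UMIs, against 13288. The CD47 gap depends on the reference, since sub-cluster 2 had only 145.5 CPM. Sub-cluster 4, also of cluster 0, had 190.8 CPM of CD47 (181.5 to 200.5), against 193.8 (185.0 to 203.0) in sub-cluster 5. CD47 was therefore not particular to sub-cluster 5 within cluster 0. Nor was PDCD1LG2, at 8.37 CPM (6.61 to 10.4) in sub-cluster 5 and 7.73 CPM (5.05 to 11.3) in sub-cluster 11. The reference, sub-cluster 2, had only 3.25 CPM of PDCD1LG2. LGALS9 was highest in sub-cluster 4 at 12.3 CPM (10.0 to 15.0), above every other larger sub-cluster.

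**Figure D4:**
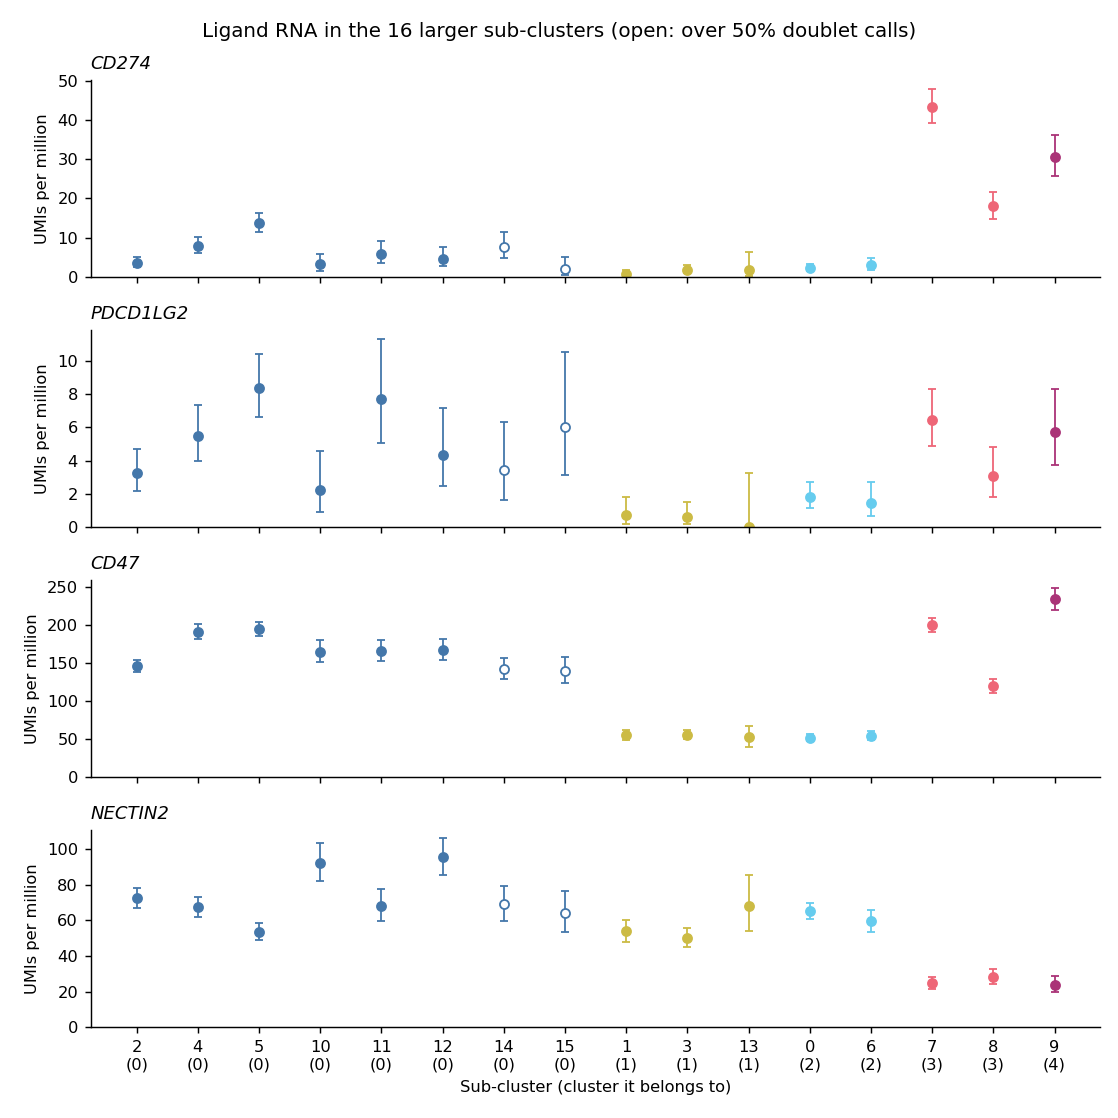
RNA level (vertical axes, CPM, exact 95% Poisson intervals) of 4 ligand genes in the 16 sub-clusters with at least 1% of nuclei (horizontal axis, with the cluster in brackets). Open points have mostly doublet calls. CD274 stands at 43.4 in sub-cluster 7 and 18.0 in sub-cluster 8, the parts of cluster 3, and CD47 is between 51.9 and 55.7 in those of clusters 1 and 2.

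Cluster 3 held sub-cluster 7 with 471 nuclei and sub-cluster 8 with 366. They were set apart by genes of epithelial adhesion, EPCAM at 681 against 37.3 CPM and CDH1 at 194.5 against 7.63 CPM, and by TAGLN, an actin-binding protein, and LOX, a collagen cross-linking enzyme, at 8.54 against 244.2 CPM and 27.1 against 244.5 CPM. CD274 was 43.4 CPM (39.2 to 47.9) in sub-cluster 7 and 18.0 CPM (14.7 to 21.7) in sub-cluster 8, a 2.42-fold difference (1.94 to 3.02). CD47 was 1.67-fold higher in sub-cluster 7 (1.53 to 1.83), at 199.7 against 119.3 CPM, and CD276 was 1.495-fold higher (1.24 to 1.82). PDCD1LG2 was 2.11-fold higher (1.23 to 3.81) from 58 and 18 UMIs, but its ratio in the 20% sample was 0.679 (0.173 to 2.81) from 6 and 5 UMIs. NECTIN2 and PVR did not differ beyond counting error, with ratios of 0.878 (0.716 to 1.08) and 0.995 (0.885 to 1.12). CD274 was the only ligand with at least 200 UMIs over both that passed 2-fold in this direction, as did 5.34% of 9348 genes, and none passed in the other, as 3.21% of genes did. The nuclei with high epithelial adhesion genes thus had more CD274, CD47 and CD276 than those with high TAGLN and LOX.

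Doublet calls made up 12.7% of sub-cluster 7 and 8.20% of sub-cluster 8, and without them the CD274 ratio was 2.50 (1.98 to 3.17). In the 20% sample, where 94 and 59 nuclei were matched to them, the ratio was 1.73 (0.999 to 3.13) for CD274, 1.93 (1.49 to 2.52) for CD47 and 2.08 (1.24 to 3.67) for CD276. PVR had a ratio of 0.635 there (0.479 to 0.844), which the 80% sample did not show.

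**Figure D5:**
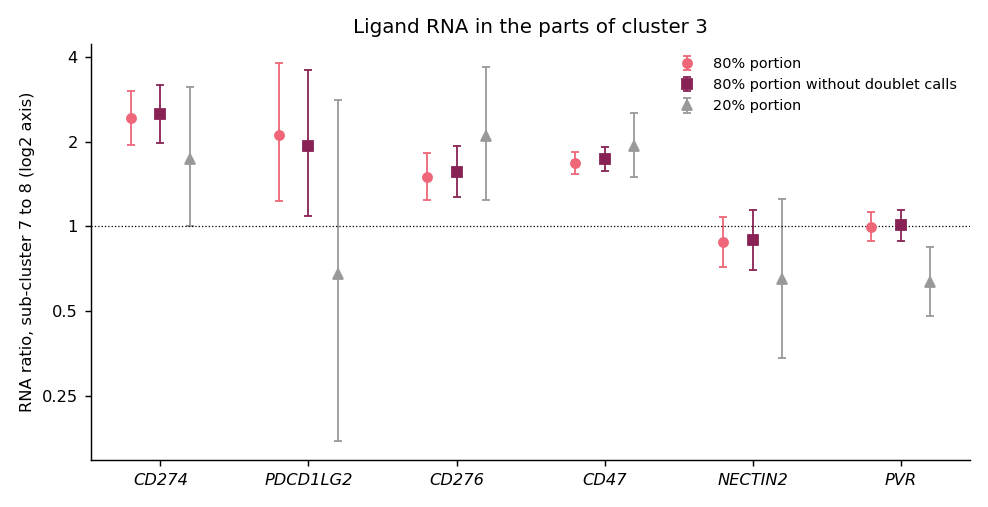
Ratio of the RNA level in sub-cluster 7 to that in sub-cluster 8 of cluster 3 (vertical axis, log2 scaled) for 6 ligand genes, with exact 95% intervals, in the 80% sample with and without doublet calls and in the 20% sample. CD274, PDCD1LG2, CD276 and CD47 lie above 1 in the 80% sample, at 2.42, 2.11, 1.495 and 1.67, and PVR lies at 0.995.

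Open chromatin at several peaks near CD274 differed between the parts of cluster 3 in the same direction. At the -3754 bp peak 9.13% of nuclei of sub-cluster 7 had a count (6.69 to 12.1), against 1.37% of sub-cluster 8 (0.445 to 3.16), or 14.6 against 3.05 ATAC CPM. At the PLGRKT intron peak at -14428 bp from the CD274 start the shares were 5.10% (3.29 to 7.49) and 0.546% (0.0663 to 1.96). In the PDCD1LG2 intron, 19470 bp after its start, they were 5.10% (3.29 to 7.49) and 0.273% (0.00692 to 1.51). The CD274 start itself was at 17.0 and 12.7 ATAC CPM, and the peak between the genes at 50474 bp was at 9.21 and 10.2. The gap was therefore widest at a few distal peaks and was not seen at each of them. These peaks were singled out after their values were seen. Gaps of this kind were also seen near other ligands. Shares were 4.25% and 0.273% at -21123 bp from the start of NECTIN2, whose RNA did not differ beyond counting error. They were 6.37% and 0.273% at -41010 bp from the CD47 start, and the other way, 0.849% and 6.01%, at -40408 bp from the PVR start. The share of all peaks with such a gap was not computed, so the gap is not shown to be particular to CD274.

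Within a cluster, detection of 1 ligand in a thinned nucleus was mostly not seen to go with detection of another. Thinned nuclei hold few ligand UMIs, with CD274 in at most 12.95% of a cluster in the 80% sample. The comparisons could therefore miss ligands that rise together. Summed over nuclei, CD274, CD47 and CD276 were all higher in sub-cluster 7 than in sub-cluster 8, while NECTIN2 and PVR did not differ beyond counting error. After thinning, the share of nuclei with a UMI of 1 ligand was compared between nuclei with and without a UMI of another. In 175 such comparisons, many of them 1 pair read in both directions, the intervals were apart in 2. These were a single pair in both directions, NECTIN2 and PVR in cluster 0, from the same 152 nuclei with both. PVR was found there in 21.4% of nuclei with NECTIN2 (18.4 to 24.6) and 27.4% of those without (25.3 to 29.5). Pairs of other genes were not compared in this way, so no share over all genes stands beside this count. In cluster 0, 0 of 80 nuclei with CD274 had PDCD1LG2 (0 to 4.51%), against 2.75% of the others, which this depth cannot separate. Cluster 0 had a mean of 1.29 ligands detected per nucleus, clusters 3 and 4 had 1.26 each, and clusters 1 and 2 had 0.804 and 0.879. CD47 alone makes up much of this gap. It was found in 55.15%, 54.08% and 66.67% of thinned nuclei of clusters 0, 3 and 4, against 24.05% and 22.14% in clusters 1 and 2. Nuclei with and without a count at a ligand's start were compared for its RNA in 33 cases, and the intervals overlapped in all 33, which at these depths does not show that the readings are unrelated. Other genes were not compared in this way either.

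Across the 16 larger sub-clusters, correlations of log2(CPM + 10) describe which ligands ran together, over points that share 1 library. PDCD1LG2 and CD47 had r = 0.857, CD274 and CD47 0.640, and CD274 and NECTIN2 -0.795. The genes most like CD274 were U52111.1 (r = 0.956) and LINC01285 (0.936), those most like PDCD1LG2 were KDM4D (0.898) and DEC1 (0.881), and the one named for CD47 was CAB39 (0.981). CD276 was most like TRNAU1AP (0.951) and ATP6V0D1 (0.936), VTCN1 like EME2 (0.769) and AC117834.1 (0.755), and NECTIN2 like TLE5 (0.927) and ID1 (0.925). For PVR these were AADAT (0.854) and HAUS7 (0.850), and for LGALS9 ZG16B (0.945) and RGL1 (0.945). Each was picked as the best of 14874 genes over only 16 points, so a high r follows from that choice. Of the 16 points, 8 lie in cluster 0, and sub-clusters 14 and 15 were mostly doublet calls. VTCN1 reached at most 1.83 CPM in any of them, so its values carry no reading of likeness.

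Most genes of a fixed list of 10 immune receptors, not all of which bind these ligands, were sparse in these nuclei. PDCD1, which encodes PD-1, had 0 UMIs in 6557 nuclei, and TIGIT had 13. Of 10 receptor genes 3 had at least 200 UMIs, as did 14874 of all 36601 genes, so few UMIs are not particular to this list. None of the 3 was 2-fold above the next cluster, against 15.6% of all genes. Of the 3, 2 ranged at least 4-fold between clusters, against 31.1% of all genes. The 3 were SIRPA, CD226 and HAVCR2, each named above as a receptor of these ligands. SIRPA, the CD47 receptor, had the most UMIs of the 10, at 32.4 CPM in cluster 3 and 4.99 to 18.9 CPM in the others. CD226 had 342 and HAVCR2 263 UMIs.

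A further list held other inhibitory or costimulatory genes. Of 25 listed, 16 had at least 200 UMIs, and 5 of these were at least 2-fold above the next cluster, against 15.6% of all genes. FGL1, a ligand of LAG3, stood at 59.9 CPM in cluster 1, 20.4-fold above the next, and so marked the cluster with the least CD274 and PDCD1LG2. IDO1, which degrades tryptophan and restrains T cells, stood at 113.1 CPM in cluster 0, 6.97-fold above the next. TNFRSF14, the ligand of BTLA, was 2.65-fold and LGALS3, another galectin, 2-fold higher in cluster 0, and CD58, which binds CD2 on T cells, 2.28-fold higher in cluster 2. TNFSF9, the ligand of 4-1BB, was 1.74-fold above the next in cluster 2.

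Among 21 genes of interferon signalling and PD-L1 regulation, all had at least 200 UMIs, 1 was at least 2-fold above the next cluster and 4 ranged over 4-fold, both smaller shares than the 15.6% and 31.1% of all genes. The first was IRF9, an interferon regulatory factor, at 44.9 CPM in cluster 4 against 20.1 in the next. IRF1, the factor known to drive CD274, was at 35.8, 23.3, 14.5, 30.7 and 58.7 CPM in clusters 0 to 4. IRF1 was thus higher in each of clusters 0, 3 and 4 than in clusters 1 and 2, a pattern held by 16.8% of genes. Cluster 3 had less IRF1 and IRF9 than cluster 4 at a like level of CD274. Whether these factors bear on CD274 here was not tested. SOCS1, an inhibitor of JAK signalling, was highest in cluster 0 at 12.1 CPM, 1.75-fold above the next, and IRF2 was 1.65-fold above the next there. In the 20% sample SOCS1 was at 10.3 CPM in cluster 0 and 9.525 in cluster 3, so its lead was smaller. CMTM6, which stabilises PD-L1 protein, was at 50.9, 65.1, 132.7, 113.8 and 68.9 CPM. Protein was not measured.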

How the data were processed

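The authors deposited whole-number counts for each portion in 1 matrix of genes and peaks, made with Cell Ranger ARC 2.0.0 per the labels on GRCh38, without normalization. No source used here says if ATAC counts are fragments or ends, and most are even, so no Poisson interval was set on them. The genes and lists were chosen with earlier results of these data known. Seurat 5.3.0 (R 4.3.3) grouped nuclei by RNA with Louvain clustering (2000 variable genes, 30 components, 20 neighbours, seed 0), at the first resolution from 0.02 that gave 5 clusters of at least 1% of nuclei, and sub-clusters from a resolution of 0.8. The 20% nuclei were placed by their best correlation with the cluster means, which put 98.2% of the 80% nuclei back in their own cluster. All barcodes were kept, and Scrublet in scanpy 1.11.5 marked 5.87% and 6.22% of them as doublets. A cluster under 3 counts was set to 3 in the calls and their ratios, but not in ratios with an interval or in log2 ratios. CPM and the ratios' exact intervals were computed in scipy 1.17.1. Genes are placed by GENCODE v44. The clustering, thinning and call steps were tested on simulated data. Named genes were the 8 ligands, at most 12 listed related genes by their ratio to the next cluster, the 2 most alike genes per ligand and at most 3 peaks per ligand; others were chosen after their values were seen. Alternatives covered doublets, depth, labels, scaling, thinning, filters and windows. The long-read totals per barcode and the matrix of both portions together were not used here. Some of the listed or most alike genes are not reported here.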

Additional observations from a re-analysis of the deposited data

How the results depend on the processing

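No paired analysis was possible because each portion had 1 library and no test was made. The count of ligands 4-fold apart in RNA stayed at 4 under every alternative run, including one added after seeing the data that split cluster 3. The count 2-fold above the next cluster stayed at 1, except 0 in the 20% sample, where the floor of 3 UMIs in the small cluster 4 lowers the ratio of LGALS9. The shares of all genes did not stay fixed. With at least 50 UMIs, a filter that VTCN1 also passes, 37.9% of genes were 4-fold apart and 19.1% were 2-fold above the next. With at least 1 UMI these were 53.7% and 38.4%, so the ligand counts do not stand above all genes there. For gene starts in ATAC the count was 0 as reported, but 1 without doublet calls, with ATAC clusters and in the 20% sample, each time CD274 in cluster 4, and 1 by the share of nuclei with a count, LGALS9 in cluster 0. Of 71 recomputed log2 ratios between the highest and the next cluster of a ligand, 6 left the counting interval, all in the 20% sample. They were 2.10 for PDCD1LG2, which rests on 1 UMI in cluster 4, 0.33 for CD276, 0.57 for CD47, 0.27 for NECTIN2, 0.67 for PVR and 2.56 for LGALS9. The 20% sample has wider counting intervals of its own, and for all 6 these overlapped the intervals of the 80% sample. LGALS9, the only ligand called 2-fold above the next, kept its direction in each. The sign turned for VTCN1 without doublet calls (-0.254), by the mean of per-nucleus CPM (-0.1005) and with ATAC clusters (-0.00166). It also turned for CD276 after thinning (-0.0159). These values stayed within the counting interval. Apart from these constructions, the cause was not tested. The sparse genes limit the depth: VTCN1, with 65 UMIs, and PDCD1LG2, with 379.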

Other observations

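A small group of nuclei within cluster 0, chosen after its values were seen, carried more of several ligands. Sub-cluster 16 held 53 nuclei, 1.89% of them doublet calls, and was led by SERPINB3, SERPINB4 and IL7R, with 318.6, 226.0 and 191.2 CPM against 4.99, 2.87 and 7.33 in the rest of the comparison. CD274 stood there at 22.8 CPM against 7.19 in the other nuclei of cluster 0, a ratio of 3.18 (1.89 to 5.05) from 19 UMIs. PDCD1LG2 was 3.35-fold higher (1.84 to 5.65) from 15 UMIs, and CD47 was 2.18-fold higher (1.94 to 2.45) at 370.3 CPM. PVR had a smaller ratio of 1.35 (1.05 to 1.725). CD276, NECTIN2 and LGALS9 had ratios of 0.618 (0.307 to 1.11), 0.847 (0.625 to 1.12) and 0.180 (0.00454 to 1.01), which counting error does not separate from 1. LGALS9 had 1 UMI in sub-cluster 16 and VTCN1 had 0. The share of all genes with like ratios in this group was not computed.

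HHLA2, a further member of the B7 family, fell under the filter with 91 UMIs and was also chosen after its values were seen. Of these, 76 lay in cluster 4, at 15.8 CPM (12.5 to 19.8), against 0.402 CPM (0.148 to 0.876) in cluster 3 from 6 UMIs, a ratio of 39.3 (17.3 to 110.5). In the 20% sample, 18 UMIs gave 27.8 CPM (16.5 to 44.01) in cluster 4, and the other clusters had 0 or 1 UMI each.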
